A study of Mus musculus with 11 samples.

Results

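The 10 genes described here, Acta2, Des, Pdgfrb, Pdgfra, Lrat, Lox, Loxl2, Tgfb1, Fn1 and Vim, are used as readouts of the activation of hepatic stellate cells. They were chosen by name, each matched 1 row of a table of 20893 genes, and all 10 passed the filter on low values that left 14244 genes for testing. Whole livers of 11 C57BL/6 mice were analysed by bulk RNA-seq, 1 library per mouse. The 4 control livers came from mice of genotype ROSA26-rtTA-IRES-EGFP; WT that the labels list with doxycycline food for 7 days. The other 7 mice, ROSA26-rtTA-IRES-EGFP; tetYAP, were fed doxycycline for 3 days (4 livers) or 7 days (3 livers) to switch on YAP S127A, a form of the Hippo pathway coactivator that escapes phosphorylation. In the study's methods the reverse transactivator, rtTA, is released by an albumin-driven Cre (Alb-CRE), so by design the transgene is switched on in the hepatocyte lineage and not in stellate cells. Whether the controls carried Alb-CRE is not stated in the labels, nor are age and sex.

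Stellate cells are the pericytes of the liver sinusoid. In their resting state they store vitamin A as retinyl esters, which Lrat makes. After injury they turn into contractile, matrix-producing myofibroblasts under the influence of TGF-beta and PDGF, which reach them from macrophages, platelets, endothelial and epithelial cells. Acta2, Des and Vim encode cytoskeletal proteins of these cells, Pdgfra and Pdgfrb the PDGF receptors, Tgfb1 the main fibrogenic ligand, Fn1 fibronectin, and Lox and Loxl2 enzymes that crosslink collagen.

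Levels are given in eRPKM, which is the exonic reads of a gene divided by its exon length in kilobases and by the library's reads on genes. Differences are log2 fold changes of eRPKM + 0.5, tested with limma over all 11 livers in 1 fit, and calls needed both an adjusted p (Benjamini-Hochberg) under 0.01 and a log2 fold change above 0.5 in either direction. Depth, recovered from the steps between low values, was 1251396 to 5495697 reads on genes in controls, 2660233 to 3681416 after 3 days and 5312486 to 5941357 after 7 days, so that the 7-day libraries were deeper than most controls. By Xist and Y-linked reads, 2 of 4 controls, 2 of 4 livers at 3 days and 3 of 3 at 7 days were female. The columns of 3-day livers 1 and 4 and of 7-day liver 2 carry a suffix, MF, of unstated meaning. The tissue held hepatocyte markers at a summed level of 1444 to 3864 eRPKM in controls, and of 20 stellate cell markers 19 could be tested, Gfap (mean 0.274 eRPKM in controls) being below the filter.

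At 3 days none of the 10 genes was called by limma against control, with 0.0421% of all tested genes called up and 0% called down. At an unadjusted p under 0.05 there were 2 of the 10 (Fn1 and Loxl2, both lower), beside 12.1% of all tested genes, and limma-voom on the recovered reads also called 0. At 7 days against control 1 of 10, Tgfb1, was called up and 0 down, beside 18% of tested genes called up and 5.77% called down (23.8% in either direction). At 7 days against 3 days the count was again 1 of 10, Tgfb1, beside 14% called up and 5.31% called down (19.3% in either direction). All livers of the later group lay above all of the earlier for 0 of the 10 genes at 3 days against control (3.38% of tested genes), 1 at 7 days against control (36.7%) and 4 at 7 days against 3 days (31.3%), and below for 0 (2.25%), 1 (13.3%) and 1 (13.8%). These shares of 10 genes lie near or below the background of the table. With median-ratio size factors, which move the median of all genes at 7 days against control from 0.26 to 0.02, the calls over the table were 1948 up and 1281 down in place of 2561 and 822, and with quantile normalization 1857 up and 1821 down. The median log2 fold change of the 10 genes was -0.20 at 3 days, 0.06 at 7 days and 0.37 between 3 and 7 days, beside 0.02, 0.26 and 0.26 over all tested genes. The last 2 comparisons share the 7-day livers, and the comparisons against control share the controls.

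**Figure D1:**
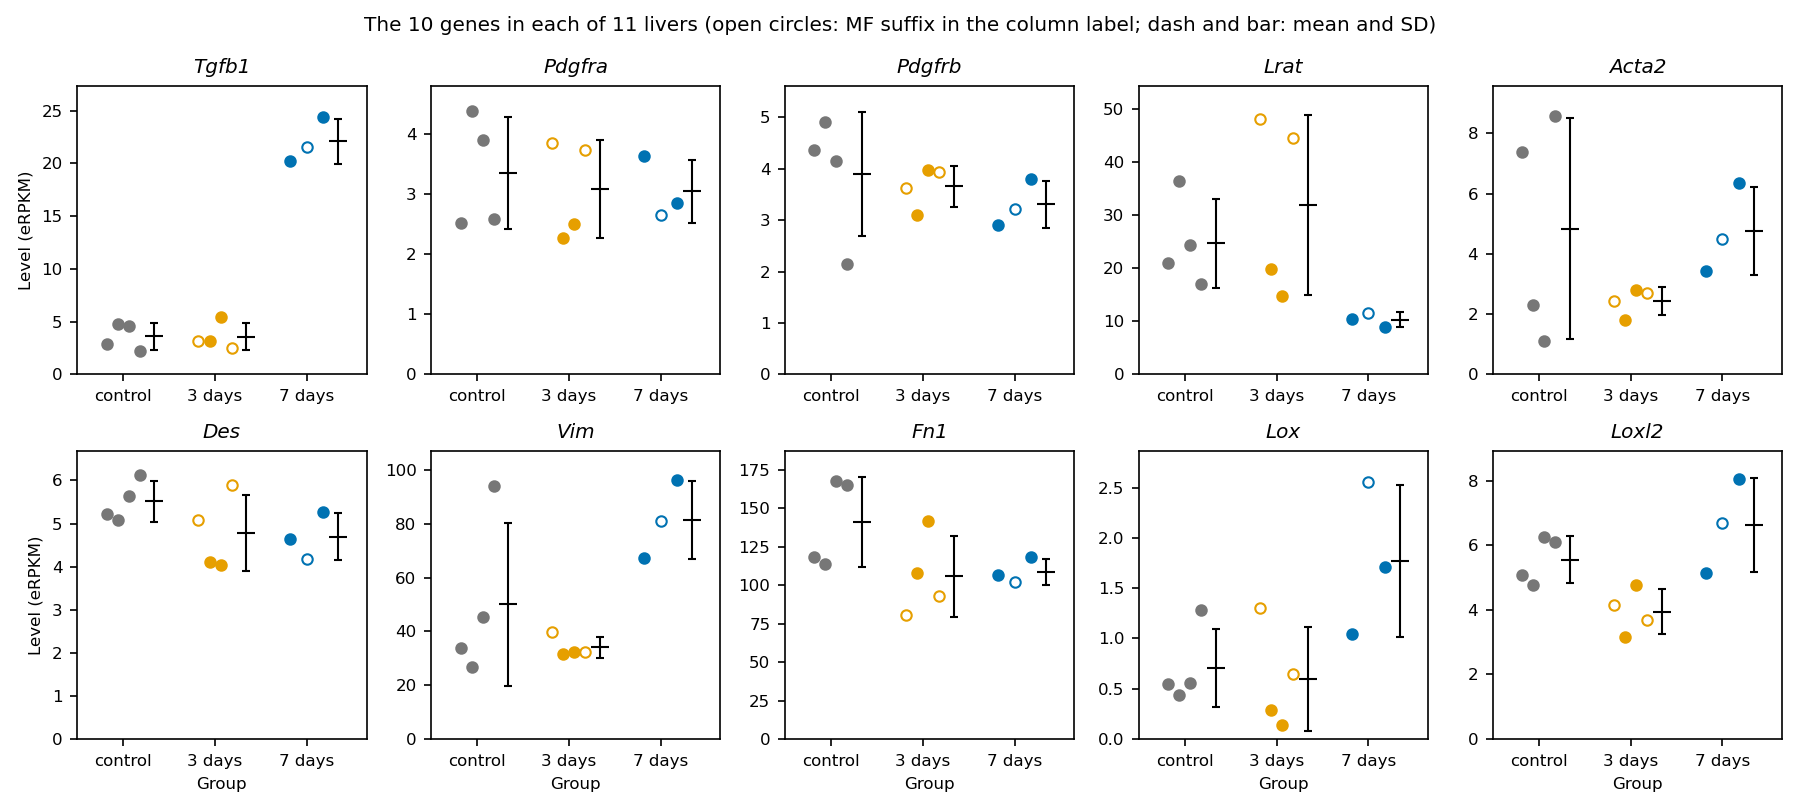
Level of each gene in eRPKM (linear axis from 0) in every liver, by group, with the mean and SD at the right of each group and open circles for livers whose column carries the MF suffix. The 7-day livers stood at 20.2 to 24.4 eRPKM for Tgfb1, above the 2.22 to 5.41 of the other livers, and at 8.81 to 11.6 for Lrat, below all others, while the groups overlapped for Des, Pdgfra, Pdgfrb and Fn1.

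The sequence upstream of a few of these genes is shown because YAP reaches DNA through TEAD factors, and Acta2 and Lrat have the letters of the TEAD core in this window while Tgfb1, the called gene, does not. The windows are the 250 bases before the RefSeq start (table on GRCm38.p6), each found by exact match at 1 place in the mm9 genome (NCBIM37): chr19:34329864-34330113, minus strand, for Acta2, chr3:82707897-82708146, minus strand, for Lrat, and chr7:26471771-26472020, plus strand, for Tgfb1. Capitals mark the TEAD core GGAATG on either strand.
Acta2: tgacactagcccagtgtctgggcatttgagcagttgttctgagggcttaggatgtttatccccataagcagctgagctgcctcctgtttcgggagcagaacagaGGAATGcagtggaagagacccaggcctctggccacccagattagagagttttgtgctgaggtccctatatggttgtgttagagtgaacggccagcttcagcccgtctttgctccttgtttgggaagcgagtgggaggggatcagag
Lrat: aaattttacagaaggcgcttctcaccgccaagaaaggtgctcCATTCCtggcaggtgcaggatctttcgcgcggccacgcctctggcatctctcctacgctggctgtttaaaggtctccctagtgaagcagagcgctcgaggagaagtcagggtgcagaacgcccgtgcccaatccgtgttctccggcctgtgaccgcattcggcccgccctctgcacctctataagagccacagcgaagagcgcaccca
Tgfb1: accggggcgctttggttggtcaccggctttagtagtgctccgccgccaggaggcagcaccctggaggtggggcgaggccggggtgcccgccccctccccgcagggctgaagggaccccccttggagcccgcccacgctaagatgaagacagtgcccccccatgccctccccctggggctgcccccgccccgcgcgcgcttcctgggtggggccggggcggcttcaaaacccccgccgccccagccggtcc
Counted from the start, the match lies at -146 to -141 on the plus strand of the Acta2 promoter and at -208 to -203 on the minus strand of the Lrat promoter. Of 6 promoters searched on both strands (these 3 with Des, Vim and Pdgfra), 2 held the core, as did 12.6% of all 32851 promoters in the table. The AP-1 letters TGANTCA, present in 6.75% of all promoters, were in none of the 6. Nor was the strict CArG box (CC, then 6 letters that are A or T, then GG), present in 1.47%. Looser CArG forms, with a G or C among those 6 letters, were not searched for, so their absence is not shown. A match describes letters and is not a measured site. In livers of its other YAP model, the study found YAP mainly at distal regions, which these windows do not cover. A window without the core therefore says nothing about YAP binding elsewhere at that gene.

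Tgfb1, the ligand whose receptor drives collagen synthesis through Smad proteins, was the gene of the group with the largest difference at 7 days. It lies at chr7:26472021-26490096 (mm9, plus strand), and its exons overlap no other annotated gene. Control livers 1 to 4 had 2.85, 4.80, 4.62 and 2.22 eRPKM. At 3 days the values were 3.13, 3.19, 5.41 and 2.52 eRPKM. At 7 days they were 20.2, 21.6 and 24.4 eRPKM. The control and 3-day livers overlapped, and all 3 livers at 7 days stood above every one of them. The gene rose with a log2 fold change of 2.50 (SE 0.29, limma adjusted p = 4.1e-05) against control and of 2.52 (SE 0.29, adjusted p = 5.3e-05) against 3 days, or 2.25 above the median of all genes in each case. At 3 days the difference was -0.01 (SE 0.27, adjusted p = 0.990). The exact two-sided permutation p was 0.0286 for both 7-day comparisons, the smallest that 4 against 3 livers allow. The reads behind these values numbered 6 to 57 per control, 18 to 43 at 3 days and 234 to 280 at 7 days, so the low levels are known only roughly. Among female livers, where controls 2 and 3 are the higher controls, the change was 2.11 (adjusted p = 0.00107). In whole liver a gene's share of the reads is measured, so more cells of a type and more RNA per cell cannot be told apart.

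Markers of other cells moved with Tgfb1. Of 10 macrophage markers tested, 8 were called up at 7 days against control and 0 down, beside 18% and 5.77% of all genes. They were led by Marco (log2 fold change 3.47), a scavenger receptor, Itgam (3.26), the integrin of myeloid cells, Timd4 (2.84), of resident Kupffer cells, and Cd68 (2.61). The summed level of this list was 244 to 498 eRPKM in controls, 314 to 564 after 3 days and 959 to 1049 after 7 days, and none of its genes was at 0 in a whole group. Lymphocyte markers summed to 11.3 to 21.8 eRPKM in controls, 11.9 to 17.1 after 3 days and 36.7 to 51.6 after 7 days. Among these, 2 of 10 were called up, beside 18% of all genes, the leukocyte phosphatase Ptprc (1.96) and Cd4 (1.30). Endothelial markers had 2 of 11 called up, beside 18% of all genes, Lyve1 (1.93) and Cdh5 (1.504). Clec4g, a lectin of sinusoidal endothelium named after its values were seen, had all 3 livers at 7 days below every control (-0.77, adjusted p = 0.0409) and fell against 3 days (-1.11, adjusted p = 0.00805). Every 7-day liver was below every control in 13.3% of all tested genes. The endothelial sums overlapped between the groups, at 157 to 273, 186 to 339 and 256 to 289 eRPKM. Biliary markers summed to 6.93 to 11.5 eRPKM in controls, 7.17 to 17.1 after 3 days and 31.1 to 39.2 after 7 days. Against control 2 of 6 were called up, beside 18% of all genes, among them Prom1 (2.92), and against 3 days 0 were. Prom1 went from 2.77 ± 2.48 eRPKM in controls to 19.9 ± 4.71 at 7 days, so that most of the higher sum is its own. Hepatocyte markers had 3 of 8 called down, Ass1 (-1.42), Ttr (-1.40) and Tat (-0.88), beside 5.77% of all genes. They summed to 1102 to 1241 eRPKM at 7 days, below the controls. The control sums fell with depth, from 3864 eRPKM in the shallowest library (control 4) to 1444 in the deepest (control 2). As the 7-day libraries were deeper than most controls, depth and induction are not separated for this list. Over all settings 2 to 6 were called down, with medians from -1.16 to -0.14. The part of these lists in the Tgfb1 result was not tested.

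**Figure D2:**
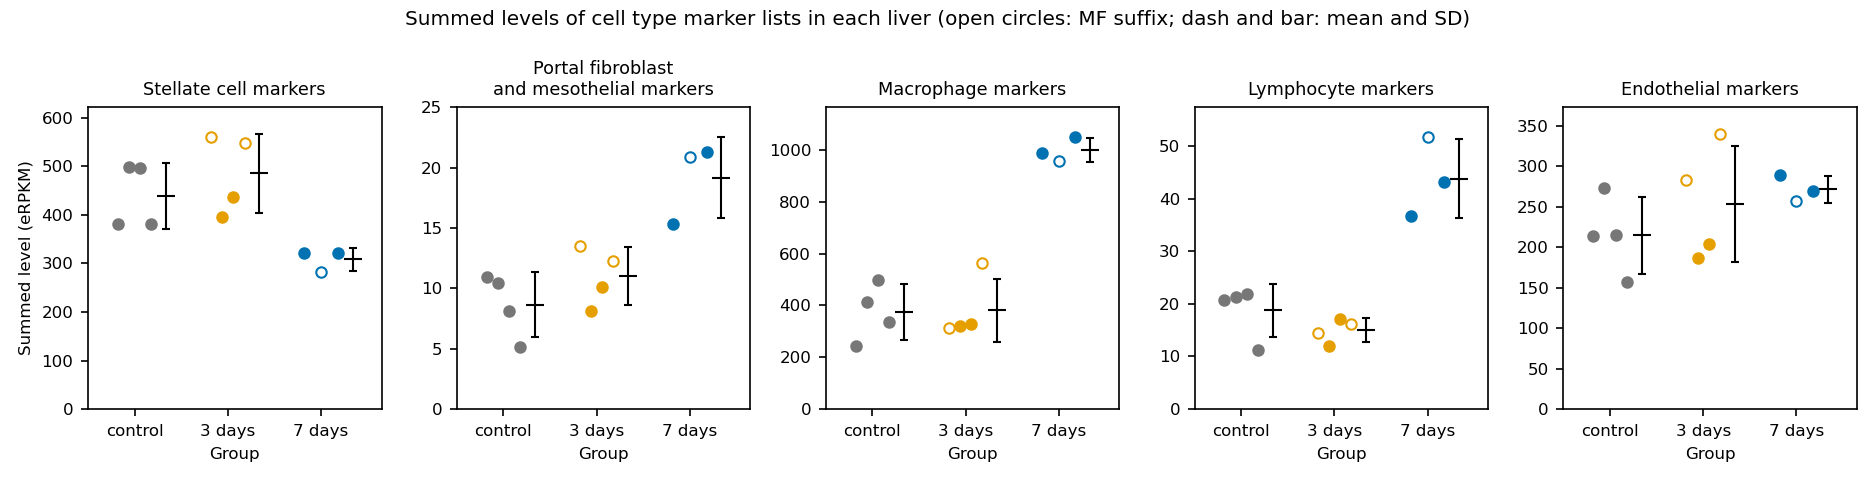
Summed level in eRPKM (linear axes from 0) of 5 lists of cell type markers in every liver, by group, with the mean and SD at the right and open circles for the MF suffix. Stellate cell markers were lowest at 7 days (282 to 322 eRPKM), macrophage (959 to 1049) and lymphocyte markers (36.7 to 51.6) were highest there, and endothelial markers overlapped between the groups.

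Some other genes of the TGF-beta axis also rose at 7 days. Of 28 tested (ligands, receptors, latency proteins, Smads and feedback genes), 8 were called up and 0 down against control. Of all tested genes 18% were called up and 5.77% down. The median log2 fold change of the 28 at 7 days was 0.43, beside 0.26 over all genes. Not all lay higher. Ltbp4 (-0.78) and Tgfbr3 (-0.49), named after their values were seen, did not pass. Ltbp4 had all 3 7-day livers below every control, as did 13.3% of all tested genes. Tgfb3, a further ligand, went from 0.845 ± 0.578 eRPKM (SD, n = 4) in controls to 4.48 ± 1.30 (n = 3) with a log2 fold change of 2.01 (adjusted p = 0.00241). Tgfb2, named after its values were seen to complete the ligands, went from 0.445 ± 0.308 to 2.48 ± 0.498 eRPKM (1.70). The matrix protein Tgfbi, named for its induction by TGF-beta, went from 23.6 ± 3.47 to 64.0 ± 5.34 eRPKM (1.43), and the Smad corepressors Skil and Tgif1 rose by 1.28 and 1.21. Thus all 3 ligand genes were called, at levels of 22.1, 2.48 and 4.48 eRPKM at 7 days for Tgfb1, Tgfb2 and Tgfb3.

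The PDGF receptors, which mark stellate cells and carry the signal for their division, did not differ detectably between the groups. Pdgfrb (chr18:61204804-61244715, plus strand) had 4.36, 4.90, 4.16 and 2.14 eRPKM in the 4 controls. The 3-day livers had 3.62, 3.10, 3.98 and 3.93 eRPKM, and those at 7 days 2.90, 3.21 and 3.80. All groups overlapped, the lowest liver being control 4 with 15 reads. Against control the 3-day livers differed by -0.03 on the log2 scale (SE 0.25, adjusted p = 0.972) and the 7-day livers by -0.16 (SE 0.27, adjusted p = 0.658). Of the settings tried, only quantile normalization placed Pdgfrb past the thresholds, at -0.85 against control (adjusted p = 0.00518) and -0.80 against 3 days.

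Pdgfra (chr5:75548316-75594229, plus strand), shared by stellate cells and portal fibroblasts, ran from 2.53 through 4.39 and 3.91 to 2.60 eRPKM in controls 1 to 4. At 3 days it stood at 3.86, 2.27, 2.50 and 3.73 eRPKM, and at 7 days at 3.64, 2.66 and 2.85. The 3-day livers formed a high and a low pair, and the 3 groups overlapped. The difference from control was -0.10 for the 3-day livers (SE 0.25, adjusted p = 0.906) and -0.10 for the 7-day livers (SE 0.27, adjusted p = 0.803). Relative to the median of all genes at 7 days, Pdgfra lay at -0.36 and Pdgfrb at -0.42.

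Among the ligands of these receptors, Pdgfa and Pdgfb rose. Of 5 other genes of the PDGF axis, 2 were called up at 7 days against control and 0 down, beside 18% and 5.77% of all tested genes. Their median log2 fold change was 0.10, beside 0.26 over all genes. Pdgfa went from 4.37 ± 1.70 eRPKM (SD, n = 4) in controls and 6.41 ± 3.21 (n = 4) at 3 days to 24.8 ± 6.83 (n = 3) at 7 days (log2 fold change 2.42, SE 0.36). Pdgfb went from 0.745 ± 0.563 and 0.601 ± 0.378 to 5.01 ± 1.60 eRPKM (2.25, SE 0.43, adjusted p = 0.00137). Pdgfc (0.10) and Pdgfd (-0.25), the ligands that need cleavage, did not pass, nor did the receptor-like Pdgfrl (-1.18, adjusted p = 0.0238), whose level was 3.46 ± 1.68 eRPKM in controls, 0.928 ± 0.292 at 3 days and 1.24 ± 0.734 at 7 days.

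Lrat, the acyltransferase that esterifies retinol for storage and the gene of the group most tied to resting stellate cells, was lowest at 7 days. It lies at chr3:82696501-82707895 on the minus strand. Control livers had 21.0, 36.3, 24.3 and 17.0 eRPKM, with 117 to 1102 reads. The 3-day livers had 48.1, 19.9, 14.7 and 44.5 eRPKM. The 7-day livers had 10.4, 11.6 and 8.81 eRPKM, with 258 to 379 reads. All 3 lay below every control and every 3-day liver, and differed from each other far less than the other groups did. Against control its log2 fold change was -1.18 (SE 0.38), with a limma adjusted p of 0.0259 that misses the threshold of 0.01, and an exact permutation p of 0.0286. Among all tested genes, 13.3% had every 7-day liver below every control. Against 3 days the change was -1.42 (SE 0.38, adjusted p = 0.0115, exact permutation p = 0.0571). Its direction was the same at 7 days in every setting tried, from -1.68 to -0.97 against control, and it passed the thresholds in 4 of 27, which were quantile normalization (-1.68), the fit of 2 groups only, the MF suffix as a covariate and the fit without 3-day liver 3.

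Of 19 other stellate cell markers tested, 4 fell at 7 days against control, beside 5.77% of all tested genes called down, and 0 were called up. Against 3 days 5 fell and 0 were called up, beside 5.31% of all genes called down. The median log2 fold change was -0.47 against control and -0.65 against 3 days, while the medians of all genes were 0.26 in both. Reln, a secreted glycoprotein, went from 14.0 ± 4.54 eRPKM in controls to 5.53 ± 0.461 at 7 days (log2 fold change -1.22, SE 0.27, adjusted p = 0.00374). Rgs5 (-0.99), a pericyte regulator of G-protein signalling, and Vipr1 (-0.98), a peptide receptor, also fell. Not all of the list lay lower, and 2 genes named after their values were seen, Pparg (0.77, adjusted p = 0.0582) and Cygb (0.56, adjusted p = 0.0803), did not pass but had all 3 7-day livers above every control. Among all tested genes, 36.7% had every 7-day liver above every control. The summed level of the list was 380 to 498 eRPKM in controls, 395 to 561 after 3 days and 282 to 322 after 7 days, so that every 7-day liver was below every other liver. With other settings between 0 and 8 of the list were called down at 7 days.

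The high and low 3-day livers of Lrat were the same as those of Pdgfra, and the MF suffix separated them. Livers 1 and 4, which carry it, had 48.1 and 44.5 eRPKM of Lrat, and livers 2 and 3, without it, 19.9 and 14.7. Lrat, Pdgfra, Des and Lox were all higher in both MF livers than in both others, and Fn1 and Tgfb1 lower, which makes 6 of the 10 genes. Over all tested genes 55.9% were split in this way, 23.2% with the MF livers above and 32.7% below. Of the 19 stellate cell markers, 12 were higher in both MF livers and 2 lower. With 2 livers against 2 no test was made, and what the suffix stands for is not given in the sources used here.

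Of 14 other genes of retinoid handling tested, 2 rose at 7 days against control, Cyp26a1 and Rarb, a share near the 18% of all genes called up, and 0 were called down, with a median of 0.05. Cyp26a1, which degrades retinoic acid, went from 15.1 ± 7.22 eRPKM (n = 4) in controls and 39.8 ± 21.1 (n = 4) at 3 days to 72.9 ± 16.9 (n = 3) at 7 days (log2 fold change 2.33, SE 0.38). The receptor Rarb, itself a retinoic acid target, went from 5.32 ± 1.81 to 12.1 ± 1.34 eRPKM (1.17). Rarres1, named after its values were seen, had 40.8 ± 21.5 eRPKM in controls, 61.6 ± 24.3 at 3 days and 14.4 ± 3.26 at 7 days, with all 3 livers at 7 days below every other liver. It fell against 3 days (-1.998, adjusted p = 0.00135), and its difference from control was -1.36 (adjusted p = 0.0110).

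Acta2 encodes alpha smooth muscle actin, the usual stain for myofibroblasts, and is also made by the muscle of vessels. It maps to chr19:34315580-34329826, minus strand. Its controls scattered more than any other group of the 10 genes in highest against lowest liver except Lox at 3 days, with 7.37, 2.30, 1.11 and 8.57 eRPKM from 75, 33, 7 and 28 reads. The 3-day livers had 2.44, 1.79, 2.81 and 2.70 eRPKM. At 7 days the levels were 3.43, 4.51 and 6.34 eRPKM. All 3 lay above every 3-day liver, and inside the range of the controls. The change against control was 0.27 on the log2 scale (SE 0.51, adjusted p = 0.697), and it turned to -0.38 with quantile normalization and to -0.19 without control liver 3. Against 3 days it was 0.82 (SE 0.51, adjusted p = 0.222), with an exact permutation p of 0.0286. In 31.3% of all tested genes every 7-day liver was above every 3-day liver.

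Des, the muscle-type intermediate filament by which rodent stellate cells are stained, varied least of the 10 genes, from 4.05 to 6.14 eRPKM over all livers. It lies at chr1:75356904-75365154 on the plus strand, and its exons share 220 bases with the antisense transcript Gm15179, whose reads an unstranded library cannot separate. Controls had 5.21, 5.09, 5.63 and 6.14 eRPKM, 3-day livers 5.08, 4.11, 4.05 and 5.89, and 7-day livers 4.63, 4.17 and 5.27. The groups overlapped, with 17 to 62 reads per liver. Log2 differences from control were -0.20 (SE 0.19, adjusted p = 0.711) and -0.21 (SE 0.21, adjusted p = 0.439) for the 3-day and the 7-day livers.

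Among other smooth muscle and contractile genes 4 of 15 tested were called up at 7 days against control and 0 down, beside 18% of all genes called up. Their median log2 fold change was 0.21, beside 0.26 over all genes. The 4 called were the smoothelin gene Smtn (1.54), the Srf coactivator Mkl1 (1.38), the filament gene Nes (1.38) and the transcription factor Srf (0.96). Smtn had 2.11 ± 1.29 eRPKM in controls and 6.52 ± 0.935 at 7 days. Of the genes not called, some were named after their values were seen, among them Tagln (0.23), Myl9 (0.11) and Myh11 (-0.11). Cald1 (0.33) had all 3 7-day livers above every control and Tpm2 (-0.76) all 3 below, and neither passed. Over all tested genes 36.7% lay wholly above the controls in this way and 13.3% wholly below. At 3 days the median of the list was -0.37, beside 0.02 over all genes.

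Vim, the intermediate filament of mesenchymal cells and leukocytes, was the second most abundant of the 10 genes. It lies at chr2:13495554-13504453, plus strand. Controls had 33.9, 26.8, 45.3 and 93.9 eRPKM. The 3-day livers had 39.7, 31.5, 32.5 and 32.5 eRPKM, and the 7-day livers 67.1, 80.8 and 96.2. The 7-day livers were above every 3-day liver and above 3 of the 4 controls, with control 4 among them. Vim differed from control by 0.85 on the log2 scale (SE 0.32, adjusted p = 0.0541) and from 3 days by 1.24 (SE 0.32, adjusted p = 0.0109), and neither met the threshold. Without control liver 4 the first was 1.21 (adjusted p = 0.000949).

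The reads behind Vim scarcely followed depth in the controls. They were 250, 279, 206 and 222, although the depth of these libraries ran from 1251396 to 5495697, and the shallowest library, control 4, therefore has the highest eRPKM. Across livers centred on their group means, log2 reads of Vim rose by 0.18 per doubling of depth. The median slope of 2377 genes with 100 to 300 reads per kilobase was 1.11, and 5 of these genes, Vim included, had a slope no higher. For Alb, with 2417 to 3102 reads in every library, the slope was 0.16. Slopes of the other members were 1.38 for Tgfb1, 1.27 for Lrat, 1.51 for Pdgfrb, 1.14 for Pdgfra, 0.85 for Des, 0.82 for Loxl2, 0.79 for Fn1 and 0.55 for Acta2. With log2 depth as a covariate the change of Vim against control was 1.64 (adjusted p = 0.000155), with voom on the reads 1.004 (0.00902), with female livers only 1.196 (0.00679), and with size factors 0.58 (0.273). At 7 days Vim had 680 to 966 reads, above the 206 to 279 of all controls, control 2 being of like depth with 279.

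**Figure D3:**
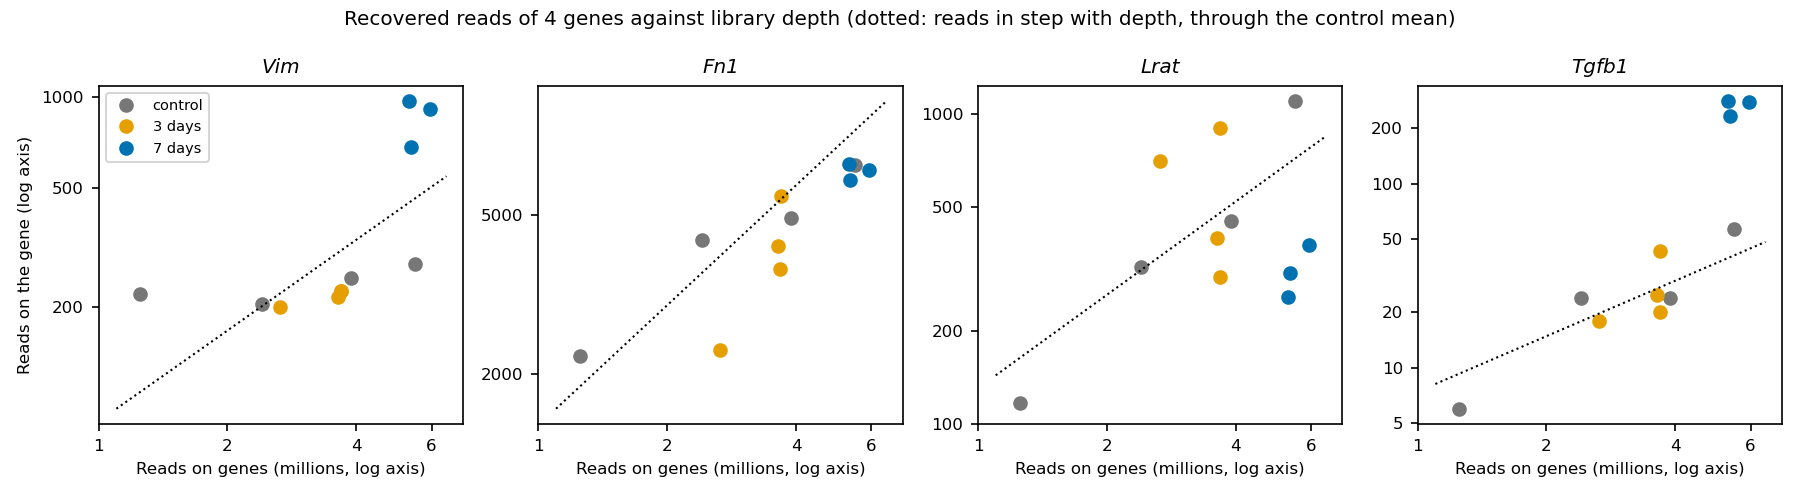
Recovered reads on 4 genes against the reads on genes of each library (both axes logarithmic), coloured by group, with a dotted line for reads in step with depth through the control mean. Vim had 206 to 279 reads in controls at every depth and 680 to 966 at 7 days, while the reads of Fn1, Lrat and Tgfb1 increased with depth among controls.

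Fn1 encodes fibronectin, which hepatocytes secrete into plasma and activated stellate cells lay down in the matrix, and it was the most abundant of the 10 genes. It lies at chr1:71632094-71699774 on the minus strand, with 292 exon bases shared with Apol7d on the other strand. Levels were 118, 114, 168 and 165 eRPKM in controls, 80.5, 108, 142 and 92.9 at 3 days, and 107, 102 and 118 at 7 days. The 2 shallowest controls, 3 and 4, were the highest livers, and the groups overlapped. Against control the 3-day livers differed by -0.42 on the log2 scale (SE 0.19, adjusted p = 0.408) and the 7-day livers by -0.35 (SE 0.21, adjusted p = 0.201), and with quantile normalization the latter was 0.14. Of 7 genes for fibronectin receptors and assembly, 2 rose at 7 days, the adaptor Tln1 (1.399) and the receptor subunit Itga5 (1.04), and Sdc4, a syndecan, fell from 197 ± 37.2 to 122 ± 8.99 eRPKM (-0.68). Over all tested genes 18% were called up and 5.77% down. Of 15 genes of fibrillar matrix and its turnover, 2 were called up and 0 down at 7 days, beside 18% of all genes called up. Their median was -0.06, below the 0.26 of all genes. The elastin gene Eln went from 0.998 ± 0.385 to 3.86 ± 0.820 eRPKM (1.56). The other call was Timp1, an inhibitor of matrix proteases, at 0.219 ± 0.283 and 1.97 ± 1.34 eRPKM (1.69), named after its values were seen. At 3 days Timp1 had 0.325 ± 0.0558 eRPKM. It passed the filter on low values only with the 7-day livers, where it is high, so its call is not evidence for the list. The collagen genes of the list, likewise named afterwards, did not pass. They were Col1a1 (-0.25), Col1a2 (-0.13), Col3a1 (0.55), Col5a1 (-0.06) and Col5a2 (0.26).

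Lox and Loxl2 oxidise lysines of collagen and elastin so that fibres can be crosslinked. Lox (chr18:52675723-52689521, minus strand) had few reads in any liver. It stood at 0.547, 0.436, 0.554 and 1.28 eRPKM in controls, from 5 to 9 reads. At 3 days it had 1.30, 0.294, 0.145 and 0.651 eRPKM, from 2 to 13 reads, and at 7 days 1.04, 2.55 and 1.71, from 21 to 57 reads. The highest control and the highest 3-day liver reached into the 7-day range. Lox differed from control by 0.91 on the log2 scale (SE 0.38, adjusted p = 0.0786) and from 3 days by 1.11 (SE 0.38, adjusted p = 0.0391).

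Loxl2 (chr14:70008978-70095640, plus strand) had 5.08, 4.78, 6.26 and 6.09 eRPKM in controls. Its 3-day values were 4.15, 3.15, 4.78 and 3.70 eRPKM, and its 7-day values 5.15, 6.68 and 8.07. The 7-day livers were all above the 3-day livers, and the lowest of them lay within the controls. The change was -0.45 (SE 0.21, adjusted p = 0.412) at 3 days, 0.22 (SE 0.22, adjusted p = 0.457) at 7 days against control, and 0.67 (SE 0.22, adjusted p = 0.0329) between 3 and 7 days. The sign against control was lost with size factors (-0.03) and quantile normalization (-0.43).

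Of 10 other genes of collagen crosslinking, 4 were called up at 7 days against control and 0 down, beside 18% and 5.77% of all tested genes. Their median log2 fold change was 0.58, beside 0.26 over all genes. The lysyl hydroxylases Plod1 (10.6 ± 1.91 to 29.7 ± 2.40 eRPKM, 1.46) and Plod3 (9.04 ± 2.02 to 22.7 ± 4.35, 1.29) rose, as did transglutaminase Tgm2 (41.2 ± 6.62 to 106.8 ± 15.0, 1.37) and the lysyl oxidase Loxl4 (2.49 ± 0.570 to 6.27 ± 1.30, 1.18). Loxl3 (0.73, adjusted p = 0.0711), Loxl1 (-0.03), Plod2 (0.15), the procollagen protease Bmp1 (0.43), and the fibulins Fbln1 (-0.58) and Fbln5 (-0.19) did not pass.

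**Figure D4:**
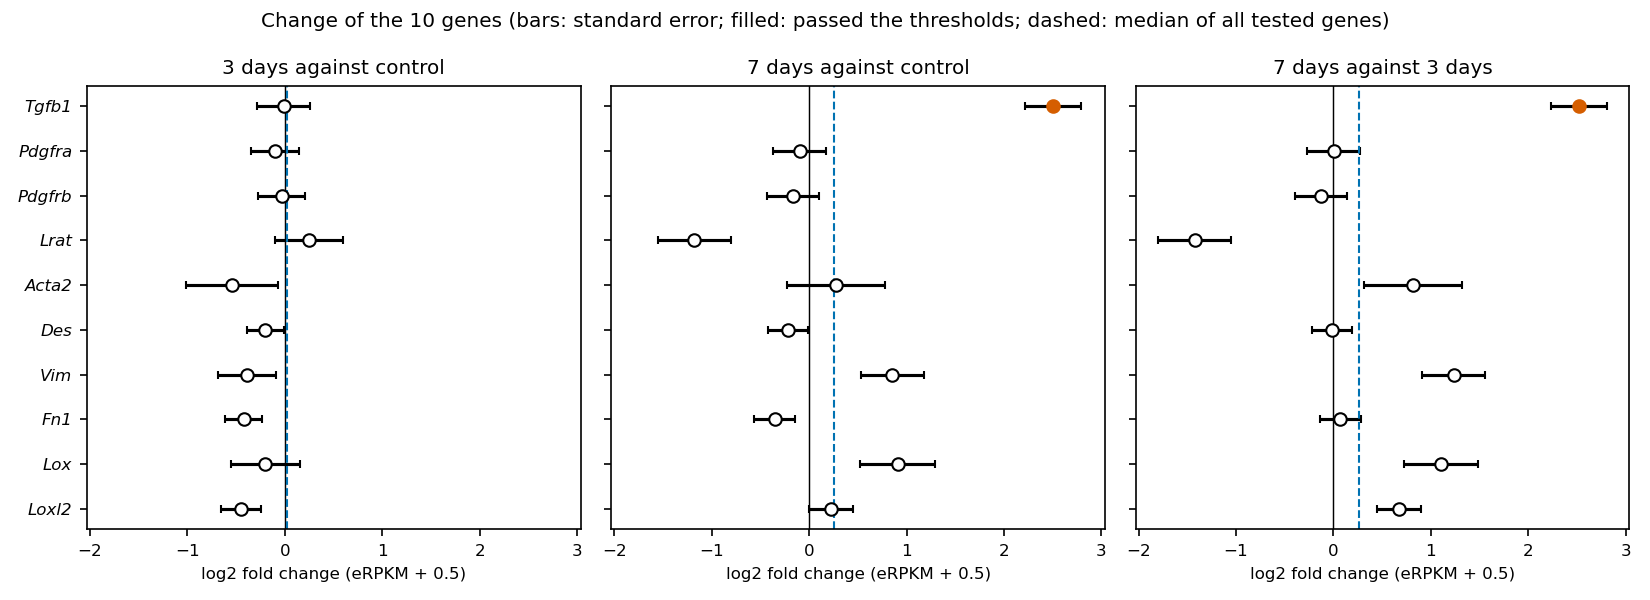
Log2 fold change of eRPKM + 0.5 for each gene in the 3 comparisons, with standard errors, filled circles for genes past the thresholds and a dashed line at the median of all tested genes. Tgfb1, at 2.50 and 2.52, is the filled gene in both 7-day comparisons, Lrat lies at -1.18 and -1.42, and no gene is filled at 3 days.

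Per kilobase, the order of mean levels in controls was Fn1 (141 eRPKM), Vim (49.99), Lrat (24.7), Loxl2 (5.55), Des (5.52), Acta2 (4.84), Pdgfrb (3.89), Tgfb1 (3.62), Pdgfra (3.36) and Lox (0.704). Vim and Lrat overlapped between livers, as did each pair of neighbours from Loxl2 to Pdgfra, while neighbours did not overlap from Fn1 to Vim, from Lrat to Loxl2 and from Pdgfra to Lox. By this order Tgfb1 was at place 8 in controls, 7 at 3 days and 3 at 7 days, where Lrat (10.3 eRPKM) followed at place 4. Every 7-day liver had more Tgfb1 than Lrat per kilobase, and every other liver less.

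After centring each group on its mean, the gene most like a member over the 11 livers was Serpina1d for Vim (Pearson r 0.99), Wdr59 for Pdgfrb (0.99), Rspo3 for Lrat (0.98), Lsm14b for Tgfb1 (0.98), Park7 for Des (0.95), Tubb5 for Fn1 (0.94), Kynu for Acta2 (0.89) and Col6a2 for Loxl2 (0.87). The next were Serpina1c (0.97), 4931406P16Rik (0.98), Cd59a (0.98), Oas2 (0.97), Sdc1 (0.93), Cdc45 (0.94), Selenbp2 (0.89) and Clec10a (0.85), in the same order of members. These values describe livers that share depth, sex and the MF suffix, and were picked from all tested genes with a mean of at least 1 eRPKM.

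**Figure D5:**
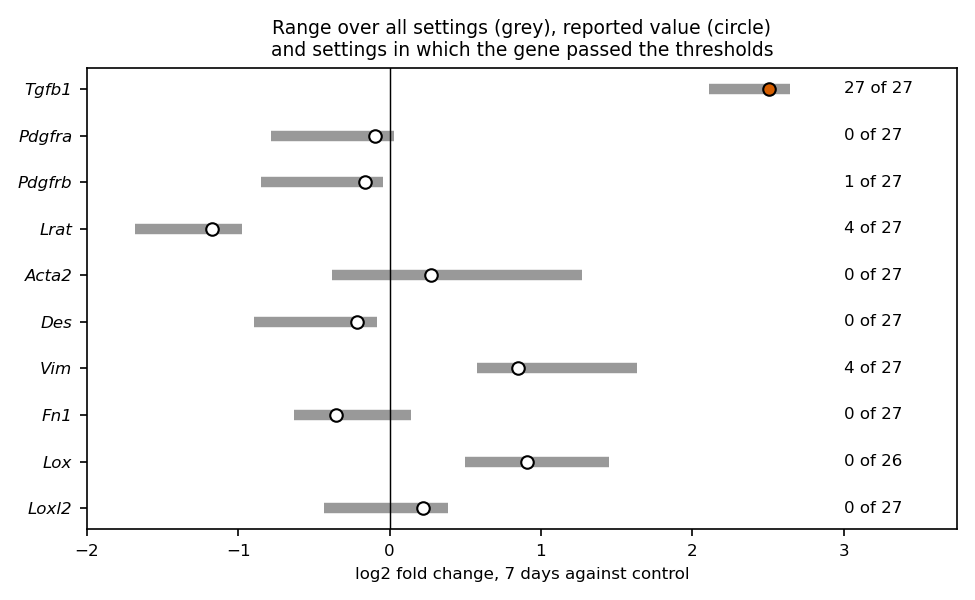
Log2 fold change at 7 days against control for each gene as reported (circle) and its lowest to highest value over all settings tried (grey bar), with the number of settings in which it passed the thresholds. Tgfb1 stayed between 2.11 and 2.64 and passed in 27 of 27, Lrat and Vim in 4 of 27, and the bars of Acta2, Loxl2, Fn1 and Pdgfra cross 0.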

How the data were processed

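Total RNA of whole livers was made into TruSeq v2 libraries. The authors aligned reads to mm9 with TopHat2 2.0.8 without strand information, and their processing notes also name SAMtools and featureCounts 1.4.5-p1. The gene annotation and the handling of duplicate reads are not given in the sources used here. The deposited table holds eRPKM, an RPKM that the authors scaled to the reads on genes of each library. Columns from the authors' own test of the 7-day livers were not used: as deposited, these give a mean signal per gene, a log2 ratio and an adjusted p-value.

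Low values were whole multiples of 1 step per gene. From these steps reads and depth were recovered, and 100% of the 177553 non-zero values lay within 0.1 of a whole read. A gene was tested if 3 or more libraries had at least 0.5 eRPKM. The test was limma 3.58.1 in R 4.3.3 (linear model, empirical Bayes with a trend) on log2(eRPKM + 0.5), a scale that understates the change of low genes. Group means of single genes were compared by exact permutation tests, two-sided, using the 70 ways of splitting 4 and 4 livers or the 35 of 4 and 3. Groups came from the labels, 1 mouse each. On simulated reads for 7 days against control (14128 genes, log2 fold change 1.5), 92 of 100 raised and 80 of 99 lowered genes were called, with 2 others. Every simulated gene had the same spread between livers (dispersion 0.0323), and genes with few reads were not among those changed. These shares therefore do not carry over to genes that scatter widely, such as Acta2, or have few reads, such as Lox.

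The 10 genes and all other lists were chosen with earlier results of these data known. From each list at most 4 called genes of 7 days against control were named, by size of change and with a mean of at least 1 eRPKM, plus every gene of the PDGF and crosslinking lists. For each of the 10 genes with that mean, the 2 genes most like it were named, except for Pdgfra, and a called stellate cell marker is likewise not reported here by name. Col6a3 and 1 macrophage marker (Adgre1 or Emr1) were not analysed here. GENCODE M1 (mm9) gave gene positions and overlaps of exons, and RefSeq the promoters of 6 genes. Python 3.11.15, numpy 2.4.6, pandas 2.3.3 and matplotlib 3.10.9 were used. Alternatives were a pseudocount of 1 or 0.1, a filter on a mean of 1 eRPKM or none at all, size factors, quantile normalization, 2 groups only, no trend, robust eBayes, a replicate block, the MF suffix, log2 Xist or log2 depth as covariates, female livers, voom on recovered reads, fits without each liver in turn, and a threshold of 0.05 on the adjusted p.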

Additional observations from a re-analysis of the deposited data

Results flagged for a closer look

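In the 3-day group the highest liver for Vim, liver 1 at 39.7 eRPKM beside 31.5 to 32.5 in the others, had a gap to its neighbour that was 0.867 of the group's range, above Dixon's critical value for 4 samples. It is the shallowest library of that group, and its 200 reads are the fewest of the 4. That depth, 2660233 reads on genes beside 3626710 to 3681416, was itself set apart by the same measure (0.946). Chance marks about 1 in 20 groups, and 22 sets were examined, of which 2 were marked.

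The change of Tgfb1 against control differed between the times of induction. It was -0.01 at 3 days and 2.50 at 7 days, a difference of 2.52 on the log2 scale (limma adjusted p = 5.3e-05), shown by 3 of 3 livers at 7 days. The controls are listed with 7 days of doxycycline, so the 3-day livers had no control of the same duration. Length of induction and time on doxycycline cannot be told apart between the 2 times.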

How the results depend on the processing

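Tgfb1 passed the thresholds at 7 days in 27 of 27 settings against control and against 3 days, and no member did at 3 days in any. At 7 days against control the number of members called, 1 as reported, was 3 with quantile normalization, 2 with each of 2 groups only, the MF suffix, female livers, log2 depth, voom and an adjusted p under 0.05, and 1 to 2 when 1 liver was left out (2 without control 4, which adds Vim, or 3-day liver 3, which adds Lrat). At 7 days against 3 days it was 4 with quantile normalization, 3 with the MF suffix and voom, 2 with size factors, 2 groups only, female livers and log2 depth, 5 with an adjusted p under 0.05, and 1 to 2 when 1 liver was left out (2 without control 2 or 4, which add Vim, or 3-day liver 3, which adds Lrat). The cause was not tested. The share of all tested genes called is not given here for most of these settings, so a higher count is not by itself a gain for the members. At an unadjusted limma p under 0.05, as reported, there were 5 members at 7 days against 3 days, beside 46.2% of all tested genes. Against control there were 4 members, beside 47.3%.

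Replicate numbers did not pair the livers (same-number correlations of deviations -0.22 to 0.27). With the number as a replicate block the count was 0 at 3 days, 1 at 7 days against control and 2 against 3 days (Tgfb1 and Vim), Des was at 0.057 and Pdgfra at -0.00016 against 3 days.

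Signs that turned were all of genes not called. At 3 days these were Acta2 (0.62, female livers), Lrat (-0.23, MF suffix; -0.21, female livers) and Tgfb1 (0.15, MF suffix; 0.0019, Xist). At 7 days against control they were Acta2 (-0.38), Loxl2 (-0.43) and Fn1 (0.14) with quantile normalization and Loxl2 (-0.033) with size factors. Against 3 days they were Des (0.0088, MF suffix; 0.082, depth), Pdgfra (-0.21, size factors; -0.68, quantile; -0.14, Xist; -0.016, female livers; -0.084, depth) and Fn1 (-0.17, size factors; -0.0062, Xist; -0.079, female livers). Leaving out 1 liver turned Pdgfrb (-0.26 to 0.084), Pdgfra (-0.21 to 0.025), Lrat (-0.0062 to 0.55), Lox (-0.47 to 0.020) and Tgfb1 (-0.21 to 0.13) at 3 days, Acta2 (-0.19 to 0.64) and Pdgfra (-0.21 to 0.027) at 7 days, and Des (-0.094 to 0.081), Pdgfra (-0.11 to 0.11) and Fn1 (-0.049 to 0.22) against 3 days.

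Over all settings the genes called up at 7 days against control numbered 4 to 8 for the TGF-beta axis, 1 to 2 for the PDGF axis, 2 to 4 for crosslinking, 0 to 3 for retinoid handling, 1 to 4 for contractile genes, 0 to 2 for fibrillar matrix and 6 to 10 for macrophage markers. Lox was below a filter on a mean of 1 eRPKM. Depth limits Lox, Acta2 and Tgfb1 most, with 2 to 7 reads in their lowest libraries, and female sex and 7 days of induction are partly confounded.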

Other observations

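Portal fibroblast and mesothelial markers, which tell other mesenchymal cells from stellate cells, summed to 5.11 to 10.9 eRPKM in controls, 8.14 to 13.5 after 3 days and 15.3 to 21.3 after 7 days. Of 8 tested, 1 was called up at 7 days against control, beside 18% of all genes, and 0 down, with a median log2 fold change of 0.66. That gene was Cd34, a surface protein of portal mesenchyme that endothelial and blood precursor cells also carry, at 2.23 ± 0.840 eRPKM (SD, n = 4) in controls, 2.30 ± 1.053 (n = 4) at 3 days and 9.65 ± 0.879 (n = 3) at 7 days (1.95, limma adjusted p = 0.000601), so that most of the higher sum is its own. Gpm6a, a mesothelial membrane protein named after its values were seen, had 1.83 ± 0.257 eRPKM in controls and 0.814 ± 0.423 at 7 days, with all 3 livers below every control (-0.88, adjusted p = 0.0462). Such a lack of overlap held for 13.3% of all tested genes.

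All 6 genes of a list of YAP targets were called up at 7 days against control, beside 18% of all tested genes. Their median log2 fold change was 3.13, beside 0.26 over all genes. Ankrd1 rose by 3.88, Ctgf, a matricellular protein that activated stellate cells also make, by 3.49, Cyr61 by 3.27 and Amotl2 by 2.98. Ankrd1 was at 0.745 ± 0.195 eRPKM in controls, 0.150 ± 0.122 at 3 days, where all 4 livers lay below every control (-0.94, adjusted p = 0.110), and 17.7 ± 2.34 at 7 days. Every 3-day liver was below every control in 2.25% of all tested genes. Ctgf had 8.69 ± 3.92 eRPKM in controls, 24.1 ± 10.1 at 3 days and 96.7 ± 8.28 at 7 days.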
